A study of Mus musculus with 16 samples.

Results

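Collagens and the other extracellular matrix genes of scar tissue were followed in the unlesioned right neocortex of C57BL/6J mice after suction of the left cerebral cortex. The list held 43 genes chosen by name, namely collagen chains, matrix glycoproteins, small leucine-rich proteoglycans, collagen maturation genes, elastic fibre genes, laminins and nidogen. A probe could be named for 41 of them, out of 20134 named genes with a value on all arrays. No probe was named for Col6a3 or Col12a1. In the adult cortex 1 week after surgery, 27 of 40 compared genes were at least 1.5-fold higher than in the adult control with each of 2 dyes, led by the chains of type I and type III collagen, where 4.69% of all genes passed this limit. At 4 weeks after adult surgery 0 of 38 passed it (0.43% of all genes). After surgery on postnatal day 7 (P7), it was passed by 1 of 40 at 1 week (0.414% of all genes) and 0 of 38 at 4 weeks (0.214%).

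The extracellular matrix of the brain is poor in fibrillar collagen. Collagen fibrils are normally found in the meninges and around larger vessels, while the basement membrane of brain vessels and of the pial surface is built of type IV collagen, laminins and nidogen. After a penetrating injury, fibroblasts of the meninges and of vessel walls lay down type I and type III collagen with fibronectin in a fibrotic scar, next to a glial scar of astrocytes. New collagen chains need a chaperone in the endoplasmic reticulum, cleavage of their propeptides outside the cell and crosslinking by lysyl oxidases before they form stable fibrils.

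The data came from 8 RNA pools of right neocortex rostral from bregma, 4 of control mice and 4 of operated mice. Controls were taken at P7, P14, P35 and 10 weeks. Neonatal brain hemisuction (NBH, called NBI in the labels) was done at P7 and sampled after 1 week (P14) and 4 weeks (P35). Adult brain hemisuction (ABH, called ABI in the labels) was done at 8 to 12 weeks and sampled after 1 week (11 weeks of age) and 4 weeks (15 weeks of age). The labels name no sham surgery, so the controls stand for untreated cortex, and the adult surgery pools were 1 and 5 weeks older than the 10 week control. The methods state that RNA of male mice was pooled in each group. Each pool was hybridized once with Cy3 and once with Cy5, each dye on a slide of its own, so the 2 arrays of a pool repeat the measurement and not the animals. No p-value can therefore be given, and every difference below describes these pools. On both slides the controls lay in the upper row and the surgery pools in the lower row, so the position on the slide and the surgery cannot be told apart, whereas both ABH pools lay in the same row.

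A level is the log2 intensity of a gene's probe minus the 75th percentile of its array, so 0 is the 75th percentile of all probes, and levels are compared only within a gene. A gene was called higher when it was at least 1.5-fold higher with Cy3 and with Cy5, and lower when each dye gave at most 0.75-fold. An error is the SD of the 2 dyes, which holds technical error alone. Of the 41 genes, 37 were well above background on both arrays of all 8 pools, and Col5a2, Col8a2, Col15a1 and Lox in some pools. The median signal was 192.5 to 253 per array against a local background of 59 to 72, and 60.2% to 72.2% of the spots were well above background. The probe of Sparc was saturated on 11 of 16 arrays, and no other gene of the list was.

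The tissue label was checked against marker genes. All 8 markers of cortical neurons were well above background in every pool, with a summed level between 134.4 and 193 (in units of the 75th percentile of the array). The pools also held transcripts of the leptomeningeal and fibroblast list, with a summed level of 13 markers between 55.8 and 75.8 in all pools. The sums are linear, so the brightest markers weigh most in them. Of these 13, Slc22a2 and Slc47a1 were not well above background on either array of control P7 and control P14. Slc47a1 was not in either NBH pool. Choroid plexus transcripts stood apart in both NBH pools and in ABH 4 weeks, where the summed level of 12 markers was 19.8 to 42.1 against 2.51 to 3.87 in the controls and 2.77 to 2.79 in ABH 1 week. The part of these transcripts in the results below was not tested. In such bulk RNA, more cells of a type and more RNA per cell cannot be told apart.

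The promoters of 4 collagen genes are shown because type I and type III chains carried the largest changes and because the paired type IV genes stand head to head and moved less. The sequences are those of RefSeq for GRCm38.p6, 250 bases before and 50 bases after the start site in the table, which is base 251 of each, and are written 5′ to 3′ on the strand of the gene. Capitals mark CCAAT boxes (CCAAT or ATTGG), GC boxes (GGGCGG or CCGCCC) and TATA boxes (TATAAA or TTTATA), searched on both strands. No matches overlapped in these 4 windows.
Col1a2, chr6:4505368-4505667, plus strand: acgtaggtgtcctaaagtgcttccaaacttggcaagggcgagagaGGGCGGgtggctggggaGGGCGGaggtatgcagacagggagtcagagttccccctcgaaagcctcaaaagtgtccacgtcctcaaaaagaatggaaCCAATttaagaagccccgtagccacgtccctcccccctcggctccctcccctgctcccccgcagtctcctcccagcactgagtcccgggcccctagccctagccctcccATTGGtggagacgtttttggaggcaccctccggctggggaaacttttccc
Col3a1, chr1:45311288-45311587, plus strand: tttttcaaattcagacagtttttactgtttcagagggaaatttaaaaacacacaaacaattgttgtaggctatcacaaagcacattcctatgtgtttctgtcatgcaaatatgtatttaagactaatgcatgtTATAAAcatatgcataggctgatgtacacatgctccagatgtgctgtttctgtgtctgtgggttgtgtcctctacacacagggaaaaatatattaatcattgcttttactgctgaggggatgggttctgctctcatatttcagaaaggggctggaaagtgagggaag
Col4a1, chr8:11312777-11313076, minus strand: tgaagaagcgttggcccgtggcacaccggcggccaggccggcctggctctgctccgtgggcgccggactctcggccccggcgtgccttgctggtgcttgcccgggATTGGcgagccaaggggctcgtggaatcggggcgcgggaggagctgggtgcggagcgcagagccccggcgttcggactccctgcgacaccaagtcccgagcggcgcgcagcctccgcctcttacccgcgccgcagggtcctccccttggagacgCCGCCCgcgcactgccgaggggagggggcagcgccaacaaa
Col4a2, chr8:11312555-11312854, plus strand: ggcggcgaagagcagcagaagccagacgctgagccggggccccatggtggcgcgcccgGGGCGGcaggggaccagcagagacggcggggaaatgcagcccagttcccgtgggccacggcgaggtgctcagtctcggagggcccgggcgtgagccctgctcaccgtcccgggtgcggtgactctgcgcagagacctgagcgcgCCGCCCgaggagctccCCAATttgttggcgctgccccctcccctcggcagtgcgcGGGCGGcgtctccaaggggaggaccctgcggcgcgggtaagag

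The Col1a2 window held 2 CCAAT boxes and 2 GC boxes and no TATA box, and that of Col3a1 held 1 TATA box and neither of the other motifs. The Col4a1 and Col4a2 windows share 78 bases on opposite strands, with 1 CCAAT box each and 1 and 3 GC boxes. The GC box of Col4a1 lies in the shared bases and is the same site as 1 of the 3 of Col4a2, read on the other strand. A promoter was found for 28 genes of the list, 33 windows in all. A CCAAT box was in 36.4% of these windows and in 37.4% of all 32851 windows, a GC box in 63.6% against 35.7%, and a TATA box in 12.1% against 13.6%. These are matches of letters and not known binding sites.

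**Figure D1:**
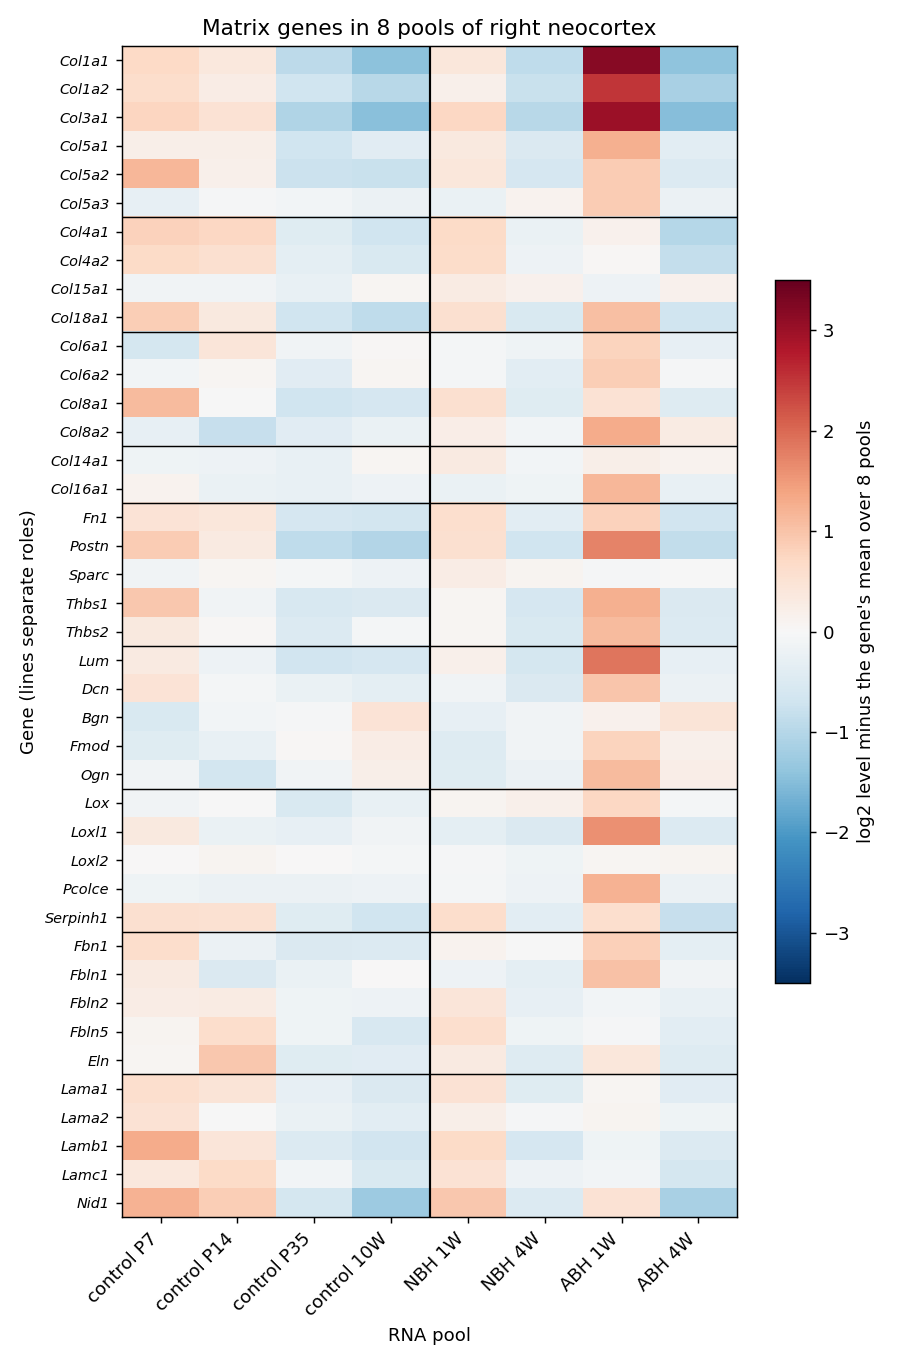
Level of 41 matrix genes (rows, grouped by role) in the 8 pools (columns), each as the mean log2 level of the 2 dyes minus the gene's mean over the pools. Red is above and blue below that mean, and ABH 1 week is the highest pool for 23 of the 41 genes, followed by control P7 for 8.

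The fibrillar collagens form the fibrils of skin, bone and scar, and all 6 chains on the list were called higher in ABH 1 week than in the 10 week control. This was part of 27 of 40 compared genes (67.5%), where 4.69% of all 16319 compared genes were called higher, and 0 were called lower (5.78% of all genes). For Col1a1, the α1 chain of type I collagen, the level was −0.68 and −0.39 in the control (Cy3 and Cy5) and 4.12 and 4.04 in ABH 1 week, a log2 fold change of 4.62 ± 0.26 (24.6-fold). For Col3a1, which forms type III collagen, it was −1.43 and −1.47 in the control and 3.0 and 3.01 in ABH 1 week, a log2 fold change of 4.46 ± 0.04 (22-fold). For Col1a2, the α2 chain of type I collagen, it was 1.52 and 1.5 against 4.96 and 5.01, a log2 fold change of 3.47 ± 0.05 (11.1-fold).

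In each of these 3 genes the ABH 1 week arrays lay above all other arrays, those of P7 included. Among all 16319 compared genes the log2 fold changes of Col1a1, Col3a1 and Col1a2 ranked 7, 8 and 16. The type V chains, which set fibril diameter together with type I collagen, were higher by less. Col5a1 rose from −1.81 and −1.60 to −0.01 and −0.11 (3.12-fold), and Col5a3 from −2.26 and −2.29 to −1.09 and −1.26 (2.14-fold). Col5a2 was not well above background on either control array and was at least 3.2-fold higher in ABH 1 week, with −1.95 and −1.79 there. Where both pools had to be well above background on all 4 arrays, 26 of 38 genes were called, and Col5a2 could not be compared.

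**Figure D2:**
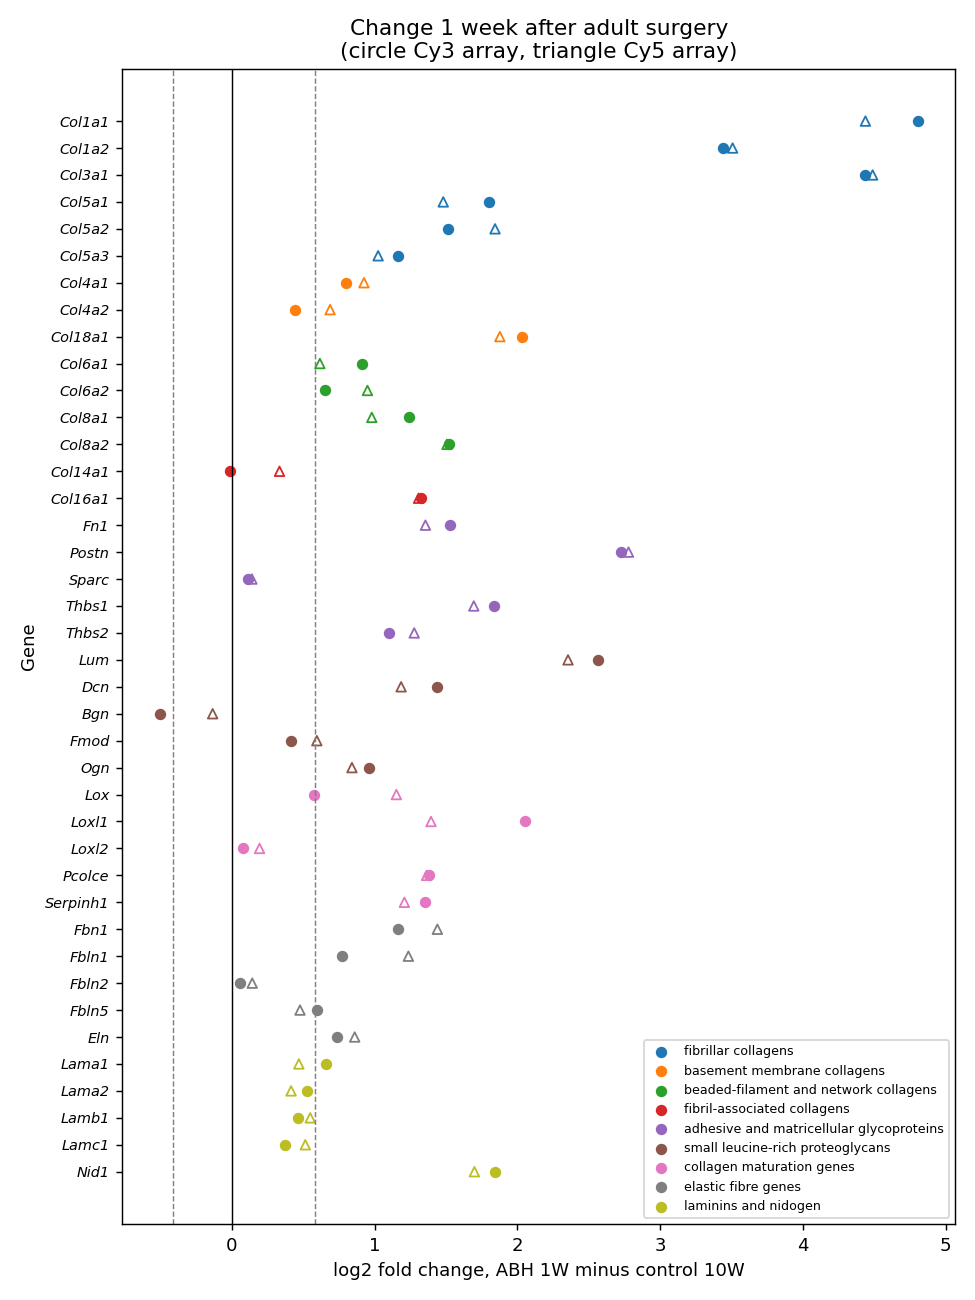
Log2 fold change of 40 matrix genes in ABH 1 week against control 10 weeks, by gene (vertical axis) and coloured by role, with a circle for the Cy3 and a triangle for the Cy5 array. The dashed lines are the limits of 1.5-fold and 0.75-fold, and 27 genes have both symbols to the right of the upper limit while none has both to the left of the lower one.

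Among the collagens of basement membranes, Col18a1, whose C-terminal part is endostatin, went from −1.66 and −1.59 in the 10 week control to 0.38 and 0.29 in ABH 1 week, 3.88-fold higher. Col4a1 and Col4a2, the main chains of vessel basement membranes, differed less. Col4a1 was at 0.26 and 0.22 in the control and at 1.06 and 1.15 in ABH 1 week (log2 fold change 0.86 ± 0.09), a call that ended when control P35 took the place of control 10 weeks. Col4a2 had a log2 fold change of 0.57 ± 0.17 and was not called. Col15a1 was well above background on at most 1 array of either pool and was not compared.

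All 4 measured beaded-filament and network collagens were called higher in ABH 1 week. The type VI chains Col6a1 and Col6a2, which form microfibrils around cells, had log2 fold changes of 0.76 ± 0.21 and 0.80 ± 0.21. The short-chain collagens Col8a1 and Col8a2 had 1.11 ± 0.18 and 1.51 ± 0.01. A second probe of Col8a2, dimmer in ABH 1 week but not in the control, was called lower, with a log2 fold change of −0.74 ± 0.38. The call of Col8a2 was lost when the probes were averaged. Of the fibril-associated chains, Col16a1 was at 1.11 and 1.00 in the control and 2.44 and 2.31 in ABH 1 week (2.49-fold), one of its other probes being called higher (1.72-fold) and the other not (1.11-fold). Col14a1 differed by 0.16 ± 0.25 on the log2 scale with the probe of the higher mean level over all arrays. Its second probe, the brighter one in ABH 1 week, was called higher (3.31-fold).

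Of the adhesive and matricellular glycoproteins, 4 of 5 were called higher in ABH 1 week. Periostin (Postn), a matricellular protein of healing wounds, was at −2.60 and −2.69 in the control and at 0.13 and 0.08 in ABH 1 week, 6.74-fold higher. Fibronectin (Fn1), an early wound matrix protein that binds integrins, was at 2.02 and 2.19 against 3.55 and 3.54, 2.71-fold higher. In Fn1 the Cy5 array of NBH 1 week reached 3.65 and lay above both ABH arrays, so ABH 1 week was not the highest pool with both dyes.

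The thrombospondins Thbs1 and Thbs2, which bind matrix proteins and growth factors, had log2 fold changes of 1.77 ± 0.10 and 1.19 ± 0.12. For Sparc, a collagen-binding protein made widely in the brain, the brightest probe was saturated on both ABH 1 week arrays (5.78 and 5.67, against 5.66 and 5.53 in the control), so the difference is only a bound of at least 1.09-fold. An unsaturated probe of Sparc was called higher in ABH 1 week, 2.11-fold.

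The small leucine-rich proteoglycans bind collagen fibrils and regulate their assembly, and 3 of 5 were called higher in ABH 1 week. Lumican (Lum) was at −1.46 and −1.17 in the control and at 1.1 and 1.18 in ABH 1 week, 5.5-fold higher. Decorin (Dcn) was at 1.34 and 1.35 against 2.77 and 2.53 (2.48-fold), and Ogn at −0.19 and −0.13 against 0.77 and 0.71 (1.87-fold). Fmod had a log2 fold change of 0.51 ± 0.13 and Bgn of −0.32 ± 0.26, and neither was called. Bgn was the member with the lowest change in this comparison.

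Of the collagen maturation genes, Serpinh1, the collagen chaperone HSP47, was at −0.07 and 0.06 in the control and at 1.28 and 1.27 in ABH 1 week (2.43-fold). Pcolce, which enhances cleavage of the procollagen C-propeptide, was at 1.62 and 1.47 against 3.0 and 2.84 (2.59-fold). Loxl1, a lysyl oxidase, was at −1.62 and −0.82 against 0.43 and 0.57, 3.3-fold higher with a wide gap between the control arrays (SD of the log2 fold change 0.46). Lox itself was well above background on the ABH 1 week arrays alone among the pools, and its bound of at least 1.82-fold passed the limit with Cy5 only. Loxl2 had a log2 fold change of 0.14 ± 0.08 with the probe of the highest mean level over all arrays. Its other probes were called higher (2.63-fold, and at least 1.64-fold).

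Among the elastic fibre genes, Fbn1, the main microfibril protein, had a log2 fold change of 1.30 ± 0.19, and Fbln1 and elastin (Eln) had 1.01 ± 0.33 and 0.80 ± 0.09. A second probe of Fbln1 was not called, with 0.36 ± 0.47. Fbln2 and Fbln5 were not called, with 0.10 ± 0.06 and 0.54 ± 0.09. Of the laminins and nidogen, the linker nidogen 1 (Nid1) alone was called higher, from −0.70 and −0.51 to 1.14 and 1.18 (3.41-fold). A dim second probe of Nid1 was not called, and the calls of Nid1 and Fbln1 were lost when the probes were averaged. The laminin chains Lama1, Lama2, Lamb1 and Lamc1 lay between 0.45 and 0.57, above 0 with both dyes and under the limit.

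Over the 40 compared genes the median log2 fold change in ABH 1 week was 1.1, while the median over all genes was −0.05. In 38 of the 40 the change was above 0 with both dyes, as it was in 4729 of all 16319 genes. Of the 27 called genes, 22 were at least 2-fold and 3 at least 8-fold higher. The 2 dyes gave nearly the same order of changes over these genes (r = 0.98 across 40 genes, against 0.86 across all genes). In the other surgery comparisons the dyes agreed less. Across the genes of the list r was 0.38 in NBH 1 week, 0.70 in NBH 4 weeks and 0.13 in ABH 4 weeks. Across all genes it was 0.24, 0.58 and 0.32. A call needs both dyes, and the low counts in those comparisons come with weaker agreement. With either dye alone, 2 genes passed the upper limit in NBH 1 week, 0 in NBH 4 weeks and 0 in ABH 4 weeks, against 29 and 30 in ABH 1 week. The lower limit was then passed by 1 to 3, 0 to 1, 1 to 4 and 0 to 1 genes. The genes share their arrays and are not independent of each other.

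**Figure D3:**
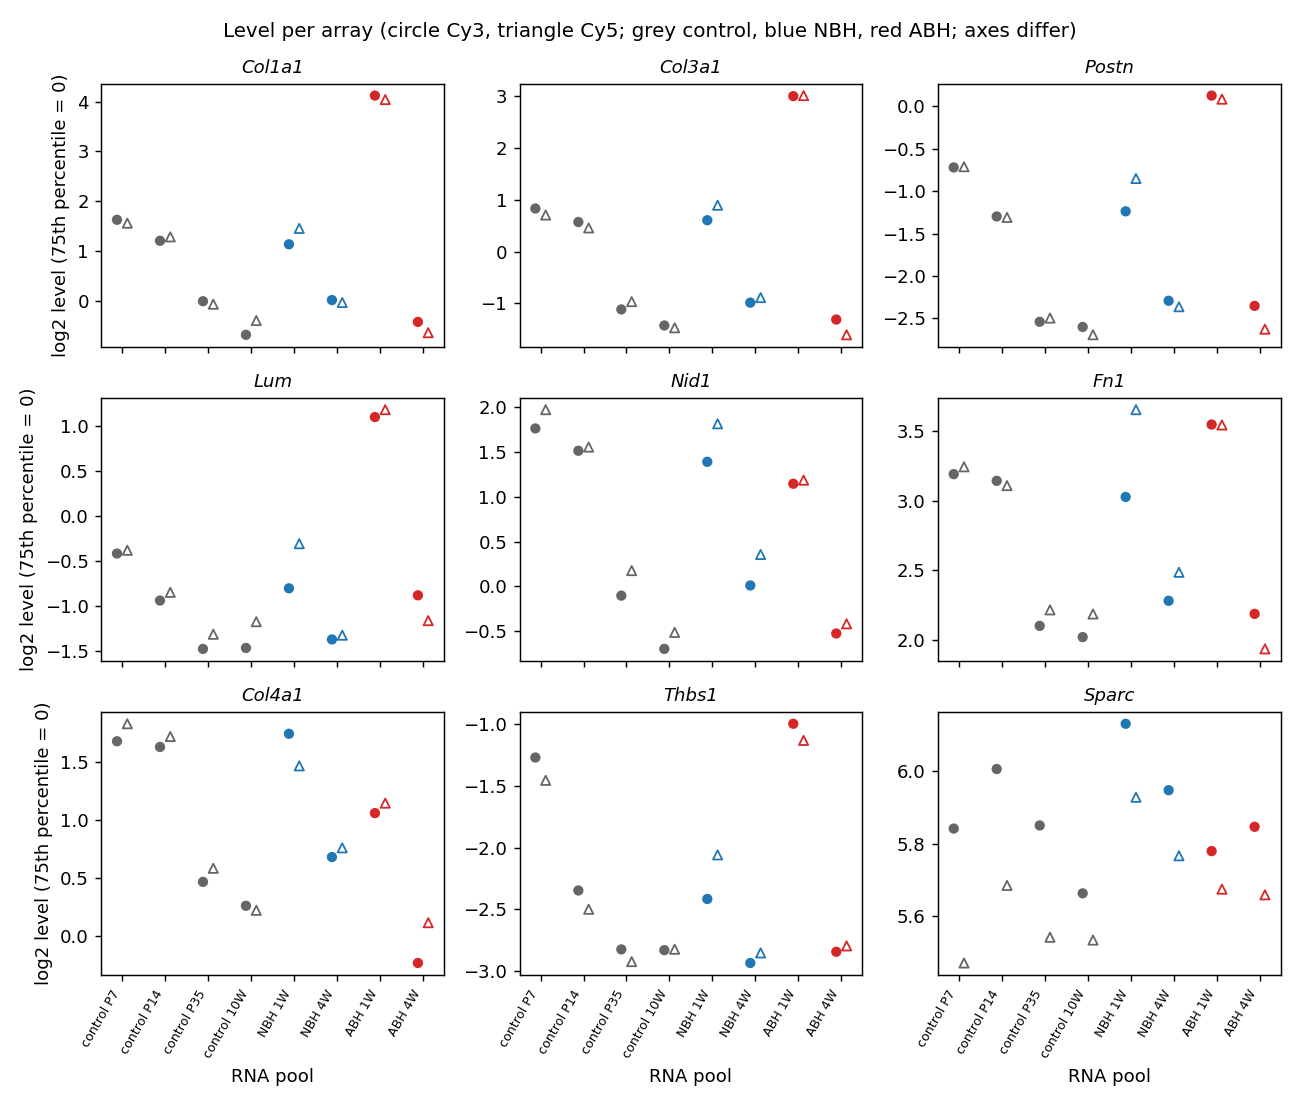
Log2 level of 9 matrix genes in each pool, relative to the 75th percentile of the array, with a circle for the Cy3 array and a triangle for the Cy5 array and controls in grey, NBH in blue and ABH in red. Col1a1, Col3a1, Postn, Lum and Thbs1 peak in ABH 1 week, Nid1 and Col4a1 are highest in the young pools, and the Sparc probe was saturated on 11 of the 16 arrays.

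The same genes were followed after neonatal surgery. In NBH 1 week, 1 of 40 compared genes was called higher (0.414% of all genes) and 0 lower (0.407% of all genes), with a median log2 fold change of 0.11 beside 0.07 over all genes. Col1a1 was at 1.21 and 1.28 in control P14 and at 1.14 and 1.46 in NBH 1 week, so the arrays of the pools overlapped. Col3a1 was at 0.57 and 0.46 against 0.60 and 0.89, a little higher in NBH with both dyes and under the limit. Col1a2 was at 2.80 and 2.69 against 2.71 and 2.63, where the arrays again overlapped. The called gene was Col8a2, at −3.13 and −3.22 in control P14 and −2.07 and −2.16 in NBH 1 week (2.08-fold). It was well above background on 1 of the 2 control arrays, and the call was lost under the stricter background filter and when the probes were averaged. A dim probe of Col16a1 was also called higher, at least 1.92-fold, while its 2 brighter probes were not.

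In NBH 4 weeks, 0 of 38 genes were called higher (0.214% of all genes) and 0 lower (0.737%), and the median log2 fold change was 0.03 beside 0.04. The log2 fold changes ranged from −0.28 for Dcn to 0.48 for Fbn1. Of 12 choroid plexus markers, 9 were called higher in NBH 1 week (0.414% of all genes) and 4 in NBH 4 weeks (0.214%), and 0 were called lower. They were led by Ttr, the transthyretin that this epithelium secretes, with log2 fold changes of 6.54 ± 0.04 at 1 week and 4.91 ± 0.05 at 4 weeks. Whether such tissue bears on the small changes of the matrix genes was not tested.

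The change in ABH 1 week was larger than the change in NBH 1 week for 35 of 39 genes compared in both, with a median difference of 1.17 on the log2 scale. This count was not made over all genes, whose median log2 fold changes were −0.05 in ABH 1 week and 0.07 in NBH 1 week. These comparisons have no arrays in common. The difference was not tested, since each condition is 1 pool. Type I and type III collagen levels were higher in control P7 and control P14 than in the 10 week control. For Col1a1 they were 1.59 in control P7, 1.25 in control P14 and −0.54 at 10 weeks (means of the 2 dyes). Whether this bears on the changes after neonatal surgery was not tested.

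In ABH 4 weeks, 0 of 38 genes were called higher (0.43% of all genes) and 0 lower (0.215%) against the same 10 week control, and the median log2 fold change was 0.00 beside 0.07. Col1a1 was at −0.42 and −0.64, within the range of the control arrays, and Col3a1 at −1.32 and −1.61, one array on each side of them. The highest value was that of Col8a2 (log2 fold change 0.52 ± 0.08) and the lowest that of Thbs2 (−0.41 ± 0.16). Ttr was higher in this pool too, by 5.74 ± 0.09 on the log2 scale, and its part was not tested.

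Set against each other directly, ABH 4 weeks was called lower than ABH 1 week in 30 of 40 genes (5.2% of all genes) and higher in 0 (3.34%). The median log2 fold change was −1.12 beside 0.10 over all genes. The log2 fold changes of Col1a1, Col3a1 and Col1a2 were −4.61 ± 0.10, −4.47 ± 0.22 and −3.62 ± 0.08. They were −2.60 ± 0.16 for Postn, −2.16 ± 0.26 for Lum and −2.09 ± 0.01 for Loxl1. The genes not called in this comparison were Bgn, Loxl2, Sparc, Col14a1, Fbln2, Fbln5 and the 4 laminin chains. Other probes of Col14a1, Loxl2 and Sparc were called lower (2.77-fold, 2.33-fold and 1.79-fold), while the dimmest probe of Loxl2 was not. In ABH 1 week the called probes of Col14a1 and Loxl2 were brighter than the probes used for these genes (means −1.53 against −2.29 and −0.84 against −0.94). The dim second probes of Nid1 and Col8a2 and the dimmest probe of Col16a1 were not called either. This comparison uses the ABH 1 week arrays that the comparison with the control also used, so the 2 sets of calls are not independent. Lox, among the 30, was compared only because it was well above background in ABH 1 week, and its fall is a bound of at least 1.52-fold. Where all 4 arrays had to be well above background, 28 of 38 genes were called lower (5.12% of all genes), and Lox and Col5a2 were not among them.

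Without surgery, many genes of the list were lower in the older cortex. Between control P7 and control 10 weeks, 22 of 39 genes were called lower (21.2% of all genes) and 2 higher (15.3%), with a median log2 fold change of −0.80 beside 0.03. P7 was the highest control for 25 of 41 genes and 10 weeks the lowest for 20, counts that were not made over all genes. Nid1 fell from 1.76 and 1.97 at P7 through 1.51 and 1.55 at P14 and −0.10 and 0.18 at P35 to −0.70 and −0.51 at 10 weeks, 5.55-fold in all, while its dim second probe was not called. Col3a1 was 4.66-fold, Col1a1 4.39-fold, Lamb1 3.87-fold and Postn 3.81-fold lower at 10 weeks than at P7. All 5 laminin and nidogen genes, all 3 compared basement membrane collagens and 5 of 6 fibrillar collagens were called lower. Col14a1, Loxl2 and Sparc were not called with age by their brightest probes, although dimmer probes of them were called lower (2.17-fold, 3.73-fold and 2.01-fold).

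The genes called higher with age were the proteoglycans Bgn (1.99-fold) and Fmod (1.63-fold). Col6a1 was 1.57-fold higher on average and passed the limit with 1 dye. The second probe of Col8a2 was called higher too, at least 2.63-fold, while the probe used for the gene was not. With the arrays scaled to their median, no gene of the list was called higher with age.

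**Figure D4:**
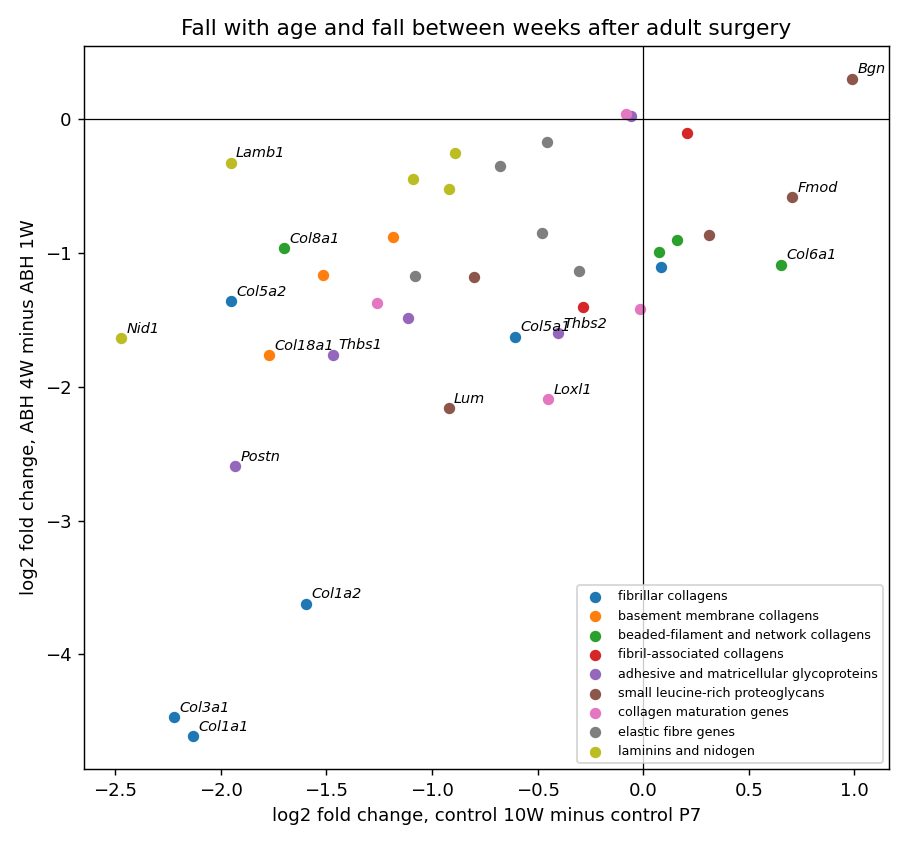
Log2 fold change between control 10 weeks and control P7 (horizontal) and between ABH 4 weeks and ABH 1 week (vertical) for 39 matrix genes coloured by role. Most points lie in the lower left, and Col1a1, Col3a1, Col1a2 and Postn are low on both axes while Bgn is above 0 on both.

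The fall with age and the fall from ABH 1 week to ABH 4 weeks rest on different arrays. Among the 39 genes that both comparisons cover, 22 were called lower with age and 29 between the ABH pools, and 17 were in both sets, which is 77.3% of the former and 58.6% of the latter. These shares lie near those of the whole list, of which 75% were called lower between the ABH pools and 56.4% with age. The overlap therefore says little beyond these call rates. Over all genes the shared part was 7.32% of those lower with age and 30.8% of those lower between the ABH pools. Of all compared genes, 5.2% were called lower between the ABH pools and 21.2% with age. The log2 fold changes of the 39 genes had r = 0.56 between the comparisons, against 0.21 across all genes, and genes of these pools are not independent replicates. Lamb1 fell with age by 1.95 ± 0.03 and was not called between the ABH pools, while Pcolce differed by −0.02 ± 0.08 with age and fell by 1.42 ± 0.08 between the ABH pools.

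In ABH 1 week 26 of 41 genes (63.4%) were above their P7 level with both dyes, as were 40.7% of 16760 genes measured in at least 1 pool. Col1a1 exceeded P7 by 2.49, Col3a1 by 2.24, Lum by 1.54 and Pcolce by 1.36 on the log2 scale. Of the basement membrane genes, Lamb1 (−1.45), Nid1 (−0.70) and Col4a1 (−0.65) stayed below it, and Col18a1 was above it with both dyes (0.18). With both dyes, ABH 1 week was the highest of the 8 pools for 22 of the 41 genes (53.7%), where 7.09% of the 16760 genes were highest there.

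Matrix genes outside the list were counted in sets written from general knowledge. The sets were written with earlier results of these data known, so they are no independent support. In ABH 1 week, 8 of 19 other fibroblast matrix genes (42.1%) were called higher and 0 lower, beside 4.69% and 5.78% of all genes, with a median log2 fold change of 0.58. They were led by Mgp, an inhibitor of calcification (3.9-fold), Tgfbi, a matrix protein induced by transforming growth factor β (3.8-fold), and the microfibril-associated Mfap4 (3.56-fold). Of 19 other collagen chains, 4 were called higher, among them Col10a1 (at least 7.13-fold, since neither control array was well above background), Col7a1 (2.24-fold) and Col4a5 (1.64-fold).

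The other sets were nearer to these shares. Of 20 collagen processing enzymes, 2 were called higher (10%) and 1 lower (5%). The higher ones were Adamts2, the procollagen N-proteinase (2.36-fold), and Crtap, a part of the prolyl 3-hydroxylase complex (1.99-fold), and the lower one was Tll1 (1.65-fold). Of 17 matrix receptors, the integrin subunits Itgb5 (2.32-fold) and Itga11 (1.95-fold) were called higher. Of 10 other basement membrane genes, Nid2 was called (2.04-fold). Of 9 brain lecticans and tenascins, the native matrix of neural tissue, 0 were called, with a median of −0.10.

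In NBH 1 week none of these 6 sets had a called gene, in NBH 4 weeks the receptor Cd44 was called higher (1.54-fold), and in ABH 4 weeks Thbs4 was (1.91-fold). Between control P7 and 10 weeks, where 21.2% of all genes were called lower and 15.3% higher, 9 of 18 other collagen chains were lower (50%) and 3 higher (16.7%). Of 18 other fibroblast matrix genes 5 were lower (27.8%) and 4 higher (22.2%), near the shares of all genes.

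Cell type markers moved unevenly beside the matrix genes of ABH 1 week. Of 12 microglia and macrophage markers, 9 were called higher and 0 lower, with Gpnmb, a glycoprotein of activated macrophages, at a log2 fold change of 6.17 ± 0.01 and the lysozyme Lyz2 at 5.26 ± 0.08. The summed level of these 12 markers was 158.9 and 158.3 in ABH 1 week against 55.2 to 106.3 in the other pools. Gfap, the intermediate filament of reactive astrocytes, was 7.73-fold higher, the only one called of 7 astrocyte markers.

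Markers of fibroblasts and of vessel cells had smaller differences. Of 13 leptomeningeal and fibroblast markers, Foxd1 alone was called higher (1.61-fold, 7.69% of the list), and 10 were above 0 with both dyes, as were 4729 of all 16319 genes. Their median log2 fold change was 0.28 beside −0.05 over all genes, and from ABH 1 week to ABH 4 weeks 4 of the 13 were called lower (5.2% of all genes), with a median of −0.365. Their summed level, in which the brightest markers weigh most, was 67.2 and 63.5 against 70.3 and 61.9 in the 10 week control. In ABH 4 weeks the sum was 71.2 and 71.8, so it did not fall with the median. Of 11 mural cell markers, Anpep alone was called (2.18-fold), with a summed level of 33.4 and 34.2 against 30.9 and 29.6. Of 11 endothelial markers 0 were called, with 60.4 and 60.5 against 57.1 and 58.5. The part of any of these cells in the matrix changes was not tested.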

How the data were processed

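Each of the 8 RNA pools was measured on 2 Agilent mouse arrays, 1 with Cy3 and 1 with Cy5, 16 arrays in all. Per the file headers, the authors quantified the spots with Agilent Feature Extraction 11.0.1.1, with probes annotated on mm9. The deposited scanner tables hold the intensity of each spot, as median signal, local background and a processed signal. The deposited value table holds the processed intensity of the labeled channel (largest difference 0.497% among values above 100) with no scaling between arrays, and 0 of its columns belonged to no sample. The methods also describe LOWESS and a p-value, neither of which was used here.

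The median signal of the labeled channel was background corrected with normexp (offset 50, limma 3.58.1, R 4.3.3), put on the log2 scale and reduced by the 75th percentile of each array, with Python 3.11.15, numpy 2.4.6, pandas 2.3.3 and matplotlib 3.10.9 for the other steps. Outlier spots (140 to 237 per array) and control spots were dropped, and spots of a probe were averaged. A probe was named through its unversioned RefSeq accession (26582 of 55681 probes), and a gene was given by its probe with the highest mean level. Of the 41 genes, 28 had 1 probe and 13 had 2 or 3. Genes were compared if 1 or both pools had Cy3 and Cy5 arrays well above background. In a pool without any such array, a level under the lowest well-above-background level of its array was raised to that level, and the change is then given as a bound.

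The limits of 1.5-fold and 0.75-fold are named in the study's methods for the RT-PCR of single genes, and the array threshold given there is the p-value not used here. Genes were counted by list, and all 43 list genes may be named, with up to 3 called genes per comparison from each other matrix list and any marker gene. The members, the lists, the limits and the alternatives were chosen with earlier results of these data known. The calling code was tested on simulated data, which bears on the code and not on these calls. The alternatives were the processed signal, offset 0, median scaling, quantile normalization, the value table, other background filters, symmetric limits, each dye alone, another control pool and the mean of all probes.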

Additional observations from a re-analysis of the deposited data

Results flagged for a closer look

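In 4 genes called higher in ABH 1 week, both dyes were below 0 in NBH 1 week, and this difference between the surgeries was not tested. The log2 fold changes in NBH 1 week were −0.072 for Col1a2, −0.19 for Col5a3, −0.49 for Col6a1 and −0.65 for Eln, against 3.47, 1.1, 0.76 and 0.80 in ABH 1 week. None of the 4 was called in NBH 1 week. The count of 4 was not set beside one over all genes, and the dyes agreed weakly in NBH 1 week (r = 0.24 across all genes).

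The channel without labeled RNA was read on every array as well. For Col5a3 and for Col16a1 it was well above background on 1 surgery array each and on 0 control arrays. The reverse held for Pcolce and for Loxl2, with 1 control array each and 0 surgery arrays, and Sparc had 2 of each kind.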

How the results depend on the processing

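In ABH 1 week the number of genes called higher lay between 26 and 35 over the 12 alternatives, beside 27 as reported. All 27 were called again under 9 of them, and the others lost Col5a2 (all 4 arrays well above background), Col4a1 (control P35) or Col8a2, Fbln1 and Nid1 (mean of all probes). Of 296 values of these genes under the alternatives, 292 stayed called and 0 were below 0. The number called lower in ABH 4 weeks against ABH 1 week lay between 28 and 35, and that called lower with age between 21 and 28. With median scaling the median over all genes in ABH 1 week moved from −0.05 to 0.21, and the members stood 1.15 above it, a distance that scaling by a constant cannot alter. Of all genes, 8.32% were then called higher and 1.56% lower in ABH 1 week, beside 4.69% and 5.78%, and 6.71% higher and 38.5% lower with age, beside 15.3% and 21.2%. The number of genes highest in ABH 1 week kept within 1.5 times its value, and 36 to 41 of 41 genes peaked in the same pool.

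The median log2 fold change, called the median here, of NBH 1 week had a wide spread between the dyes (SD 0.126), and it was 0.0167 with median scaling, 0.0686 with quantile normalization and 0.0475 to 0.225 over single dyes, beside 0.115. The medians that moved by more than their own spread between the dyes, and the counts that moved by over 1.5 times, were these. With the processed signal, 2 genes were higher in NBH 1 week and 1 in ABH 4 weeks, and the medians were 0.021 in NBH 4 weeks, 1.32 in ABH 1 week and −1.28 between the ABH pools. With offset 0, 2 genes were higher in NBH 1 week, 1 was higher and 1 lower in ABH 4 weeks, and the medians were 1.32 in ABH 1 week and −1.22 between the ABH pools. With median scaling, 1 gene was lower in NBH 1 week and 0 were higher with age, and the medians were −0.0385 in NBH 4 weeks, 1.36 in ABH 1 week, −0.047 in ABH 4 weeks, −1.13 with age and −1.43 between the ABH pools. With quantile normalization, the medians were 1.29 in ABH 1 week and −1.22 between the ABH pools. With the value table, 1 gene was lower in NBH 4 weeks, 3 were lower in ABH 4 weeks and 1 was higher with age, and the medians were −0.09 and −0.21 in NBH at 1 and 4 weeks, 1.39 and −0.19 in ABH at 1 and 4 weeks, −0.96 with age and −1.51 between the ABH pools. Without a background filter, the medians were 0.0474 in NBH 4 weeks and −0.68 with age, and with all 4 arrays well above background 0 genes were higher in NBH 1 week and the median with age was −0.74. With the other control, 1 gene was higher in NBH 4 weeks, 1 was higher and 3 were lower in ABH 4 weeks, and the medians were 0.0835 in NBH 4 weeks and 1.2 in ABH 1 week. With the mean of all probes, 0 genes were higher in NBH 1 week, and the medians were 0.0474 in NBH 4 weeks, 0.92 in ABH 1 week, −0.91 with age and −1.03 between the ABH pools. Over single dyes, NBH 1 week had 2 genes higher and 1 to 3 lower, NBH 4 weeks had 0 to 1 lower, ABH 1 week had 0 to 1 lower and ABH 4 weeks had 1 to 4 lower, and the medians were 0.03 to 0.0467 in NBH 4 weeks, 1.13 to 1.17 in ABH 1 week, 0.0069 to 0.068 in ABH 4 weeks and −0.82 to −0.79 with age. The cause of these shifts was not tested.

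Pools were compared within each dye, but animals could not be paired, because the labels give no replicate numbers and each group is 1 pool. Each condition is 1 pool of RNA, so the spread between animals is unknown. Genes near background give bounds, which understate a change, and the offset of 50 shrinks the changes of dim genes.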
